A study of Mus musculus with 6 samples.

Results

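The genes described here repair broken or crosslinked DNA by homologous recombination and the Fanconi pathway, or signal DNA damage to the cell cycle. They are 38 genes, chosen by symbol from a list of recombination, Fanconi and checkpoint genes, of the 26187 genes in the deposited tables, and all 38 were among the 12590 genes tested. The cells were MC3T3-E1, pre-osteoblasts established from the calvaria of a mouse. Poly(A) RNA was sequenced from 3 samples given 30 μg/mL of PAKG–8diol–PEG(S) MPs in OC medium over 2 days (PAKG) and from 3 samples left in that medium without MPs (OC). PAKG–8diol–PEG(S) MPs are small biodegradable particles of a polymer that releases α-ketoglutarate, and OC medium is growth medium with ascorbic acid and β-glycerophosphate, so the control cells were in a differentiation medium too. All 6 libraries come from 1 cell line. The sources do not say whether the 3 samples of a group came from separate cultures, so the p-values reflect the spread among these 3 and 3 samples alone, and that spread may be technical. Values are the authors' FPKM (fragments scaled to transcript length and to library size). Being per length, they allow a rough comparison between genes, although levels in replicate 2 still went with transcript length (below).

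In homologous recombination, a broken DNA end is cut back to a single strand, the BRCA1–BARD1, PALB2 and BRCA2 proteins load a recombinase on that strand, and the strand copies the intact sister chromatid. The Fanconi core complex ubiquitylates the FANCD2–FANCI pair at an interstrand crosslink, and recombination factors finish the repair. ATM and ATR are the kinases that sense breaks and single-stranded DNA, and CHEK2 and CHEK1 carry their signal to the cell cycle. Because the sister chromatid exists only after DNA replication, many of these genes are known to be transcribed with DNA replication under E2F factors, whereas others are transcribed at a steady level through the cycle. The comparison of PAKG with OC libraries asks here whether the 38 genes were lower with the MPs, and whether they moved with the genes of the cell cycle.

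Of the 38 genes, 21 were lower in PAKG than in OC and none was higher at an adjusted p under 0.05 (limma on log2(FPKM + 0.1), 2-sided, Benjamini-Hochberg adjustment over all genes tested). Over all genes tested, 8.73% were lower and 5.97% were higher at this threshold. The falls were moderate. The median log2 fold change was -0.48 over the 38 genes and -0.03 over all genes tested, and the largest fall, that of Bard1, was -0.82. With the study's second condition, a fold change of at least 2, limma called none of the 38, and 0.58% of all genes tested were called lower. At an unadjusted p under 0.05, 28 of the 38 were lower and 1, Rad52, was higher, against 16.8% and 12.0% of all genes tested. All 3 PAKG libraries lay below all 3 OC libraries for 29 of the 38 genes, against 19.6% of all genes tested, and above them for Rad52 alone, against 13.7%. The count of 21 was 11 without PAKG replicate 3, 14 without OC replicate 1 and 22 without PAKG replicate 2. These 38 genes ranged on average from 0.427 FPKM (Palb2) to 21.2 FPKM (Nbn) in PAKG and from 0.667 FPKM (Palb2) to 25.3 FPKM (Nbn) in OC. By the depth estimated from the low values, 54 (Palb2) to 2475 fragments (Rad50) stood behind each value of a gene in a library. In bulk RNA, a smaller share of cells that express a gene and less of its RNA per cell cannot be told apart.

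**Figure D1:**
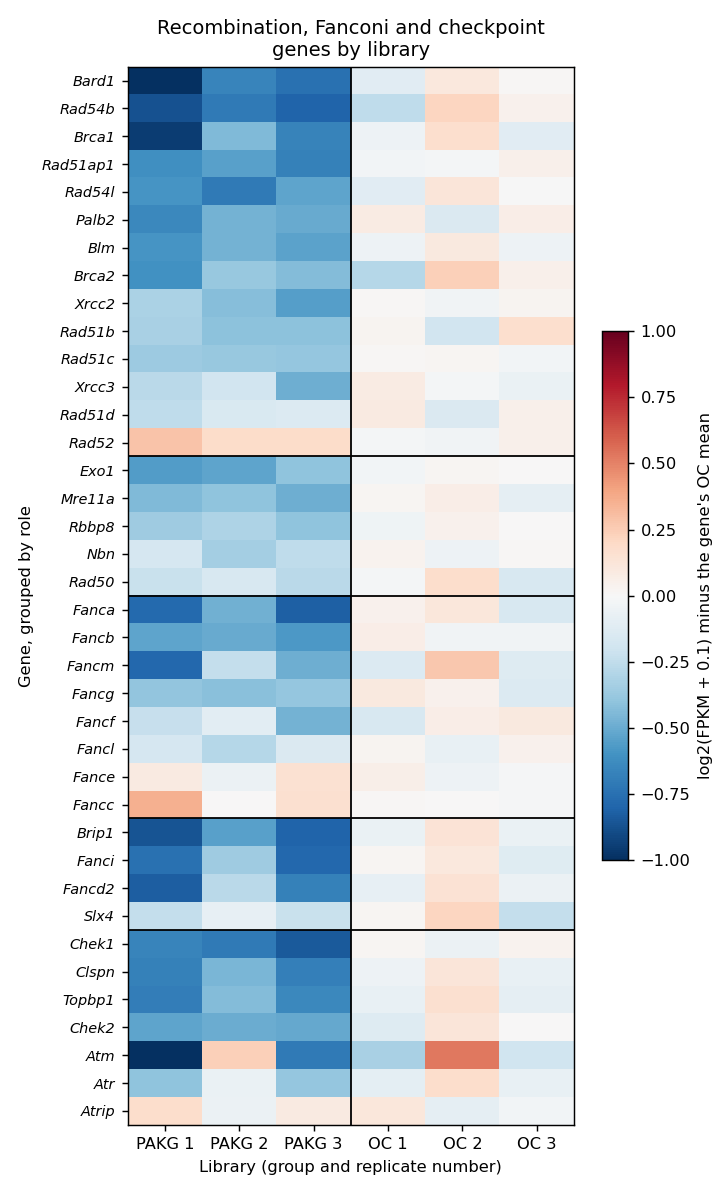
Level of each of the 38 genes in the 3 PAKG libraries (left) and the 3 OC libraries (right), as log2(FPKM + 0.1) minus the gene's mean over the OC libraries, with genes grouped by role in the order recombination, end resection, Fanconi core, Fanconi ID complex and downstream, checkpoint. Blue is lower and red higher, and colours are saturated beyond -1 and 1. Most rows are blue in all 3 PAKG columns, Rad52, Fancc, Fance and Atrip are not, and Atm is highest in replicate 2 of both groups.

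RefSeq promoter windows (250 bases before to 50 after the start of a gene, GRCm38.p6) were given for 30 of the 38 genes. They were searched on both strands for the E2F octamers TTTCCCGC, TTTGGCGC, TTTCGCGC and TTTGCCGC, for the CHR hexamer TTTGAA of late cell cycle genes, and for the CCAAT box, none of which contains another. An E2F octamer was found in 7 of the 30 (23.3%), Brca2, Bard1, Rad51c, Fancg, Chek2, Topbp1 and Clspn, against 5.01% of the 8840 tested genes with a window and 2.60% of all 27025 genes in the table. Of the 7, 6 were called lower. Among the genes with a window, 16 were called lower, and 37.5% of these had an octamer, against 1 of the 14 not called (7.14%). Of 11 genes with a window that are listed below as replication-linked, 3 had an octamer (27.3%), as did 23.3% of all 30. It was found in 40.0% of 40 DNA replication genes, 10.2% of 49 mitosis genes and 8.89% of 45 further recombination, crosslink repair and checkpoint genes. The CHR hexamer was found in 2 of the 30 (6.67%), Bard1 and Rad51b, whereas it was found in 69.4% of 49 mitosis genes, 17.5% of 40 DNA replication genes and 14.2% of the tested genes. The CCAAT box was found in 66.7% of the 30 (62.5% of those called lower and 71.4% of those not called) and in 43.8% of the tested genes. A match describes the letters only. The following 4 windows are shown because their genes carry an E2F octamer and were called lower under every setting tried. They lie at chr1:71102923-71103222 (minus strand, Bard1), chr5:110839733-110840032 (plus, Chek2), chr9:103305077-103305376 (plus, Topbp1) and chr4:126556730-126557029 (plus, Clspn). They are written 5′ to 3′ on the strand of the gene with the octamer, or its reverse complement, in capitals.
Bard1: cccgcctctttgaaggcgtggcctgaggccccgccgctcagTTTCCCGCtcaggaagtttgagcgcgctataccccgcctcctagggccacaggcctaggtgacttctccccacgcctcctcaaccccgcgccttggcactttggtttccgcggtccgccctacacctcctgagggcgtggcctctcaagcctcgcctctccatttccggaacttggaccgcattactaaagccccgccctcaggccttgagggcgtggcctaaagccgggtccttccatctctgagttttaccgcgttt
Chek2: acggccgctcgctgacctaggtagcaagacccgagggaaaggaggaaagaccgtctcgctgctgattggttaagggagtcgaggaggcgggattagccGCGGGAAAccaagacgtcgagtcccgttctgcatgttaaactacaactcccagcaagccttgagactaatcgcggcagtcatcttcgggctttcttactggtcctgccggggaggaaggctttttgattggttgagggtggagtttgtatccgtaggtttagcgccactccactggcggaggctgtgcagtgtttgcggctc
Topbp1: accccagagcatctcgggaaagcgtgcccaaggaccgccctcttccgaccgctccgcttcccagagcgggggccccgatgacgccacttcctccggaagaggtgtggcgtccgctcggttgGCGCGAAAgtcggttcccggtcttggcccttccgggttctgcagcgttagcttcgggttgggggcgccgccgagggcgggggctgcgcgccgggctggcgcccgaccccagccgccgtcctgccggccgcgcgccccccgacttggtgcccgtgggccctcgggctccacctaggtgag
Clspn: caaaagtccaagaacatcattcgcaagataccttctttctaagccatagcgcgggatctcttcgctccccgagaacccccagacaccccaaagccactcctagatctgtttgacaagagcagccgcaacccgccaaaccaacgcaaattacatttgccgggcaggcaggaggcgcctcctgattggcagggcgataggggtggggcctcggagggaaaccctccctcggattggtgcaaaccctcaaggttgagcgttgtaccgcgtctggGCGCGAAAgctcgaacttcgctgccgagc

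Of 14 recombination genes, 8 fell with PAKG MPs and none rose. Brca1, the ubiquitin ligase subunit that directs breaks to recombination (ENSMUSG00000017146, chromosome 11, 101488764 to 101551955 on GRCm38, as are all coordinates here), had 2.93, 4.23 and 3.59 FPKM in PAKG libraries, against 5.55, 6.50 and 5.31 FPKM in OC libraries. The groups did not overlap (log2 change -0.69, SE 0.14, limma adjusted p = 0.0193, where SE is the standard error). Its obligate partner Bard1 (ENSMUSG00000026196, chromosome 1, 71027498 to 71103146) had 1.54, 2.05 and 1.93 FPKM in PAKG, against 3.04, 3.55 and 3.32 FPKM in OC. Every PAKG value of Bard1 was below 3 FPKM and every OC value above it (-0.82, SE 0.13, adjusted p = 0.0064). Brca2, which loads the recombinase (ENSMUSG00000041147, chromosome 5, 150522630 to 150570329), had 1.04, 1.23 and 1.18 FPKM in PAKG, against 1.32, 1.94 and 1.69 FPKM in OC. Its groups did not overlap either, but the change of -0.47 (SE 0.16) had an adjusted p of 0.102, which was 0.0303 with the replicate number as a block. Palb2, the bridge between BRCA1 and BRCA2, was the lowest of the 38 genes, with 0.39, 0.45 and 0.44 FPKM in PAKG, against 0.71, 0.59 and 0.70 FPKM in OC. Its change of -0.54 was not called (SE 0.20, adjusted p = 0.114), but was called with no mean-variance trend (0.0159).

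Among the factors that act on the recombining strand, Rad51ap1, which stimulates strand joining (ENSMUSG00000030346, chromosome 6, 126923050 to 126939587), had 6.66, 7.01 and 6.37 FPKM in PAKG, against 10.06, 10.08 and 10.60 FPKM in OC. The gap between the groups was wide beside the spread within them, at a log2 change of -0.61 (SE 0.07, adjusted p = 0.00174). The motor protein gene Rad54l (ENSMUSG00000028702, chromosome 4, 116094264 to 116123690) had 2.33, 2.14 and 2.44 FPKM in PAKG, against 3.27, 3.88 and 3.54 FPKM in OC (-0.61, adjusted p = 0.00829). Its relative Rad54b (ENSMUSG00000078773, chromosome 4, 11558922 to 11615805) had 1.63, 1.84 and 1.71 FPKM in PAKG, against 2.55, 3.56 and 3.15 FPKM in OC (-0.79, adjusted p = 0.00895). The BLM helicase gene Blm, whose product dissolves crossed DNA strands, had 1.91, 2.08 and 1.99 FPKM in PAKG, against 2.83, 3.13 and 2.83 FPKM in OC (-0.53, adjusted p = 0.0104). Rad52, in mammals an accessory annealing factor, was the one recombination gene with a positive change, with 2.70, 2.51 and 2.51 FPKM in PAKG and 2.16, 2.14 and 2.28 FPKM in OC (0.22, SE 0.09, adjusted p = 0.16). Rad54b shares 2068 of its 5782 exonic bases with Fsbp on the same strand, and how the counting shared out these reads is not known. Rad54l shares 1184 of 7706 exonic bases with Lrrc41 on the opposite strand, and the sources do not say whether the authors' counting used strand.

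The 5 paralogs of the recombinase, which act as the complexes BCDX2 and CX3, had smaller changes than Bard1 or Rad51ap1. Rad51c, a subunit of both complexes, had 2.21, 2.19 and 2.18 FPKM in PAKG, against 2.89, 2.91 and 2.82 FPKM in OC (log2 change -0.37, SE 0.08, limma adjusted p = 0.0257). Within each group these values differed by less than 0.1 FPKM. Xrcc2 had 2.82, 2.61 and 2.38 FPKM in PAKG, against 3.56, 3.44 and 3.61 FPKM in OC (-0.43, adjusted p = 0.0226). Xrcc3, Rad51b and Rad51d had log2 fold changes of -0.32, -0.38 and -0.18 and were not called (adjusted p = 0.0838, 0.157 and 0.23), and with the block Xrcc3 was called (0.0265; also without PAKG replicate 2, 0.0481) and the other two were not (0.107 and 0.136). Whether the paralogs differed from the other genes was not tested. Of the recombination genes, 4 lost their call without PAKG replicate 3, Brca1 (adjusted p = 0.0661), Rad51c (0.113), Xrcc2 (0.105) and Blm (0.0526). Brca1 also lost it without OC replicate 1 (0.0561), 2 (0.0539) or 3 (0.0525), Xrcc2 without OC replicate 1 (0.0769) or 3 (0.0934), and Rad51c without PAKG replicate 1 (0.0743) or OC replicate 1 (0.0848), 2 (0.0667) or 3 (0.0878). With the libraries rescaled to a common total, the adjusted p was 0.092 for Rad51c and 0.0544 for Xrcc2.

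**Figure D2:**
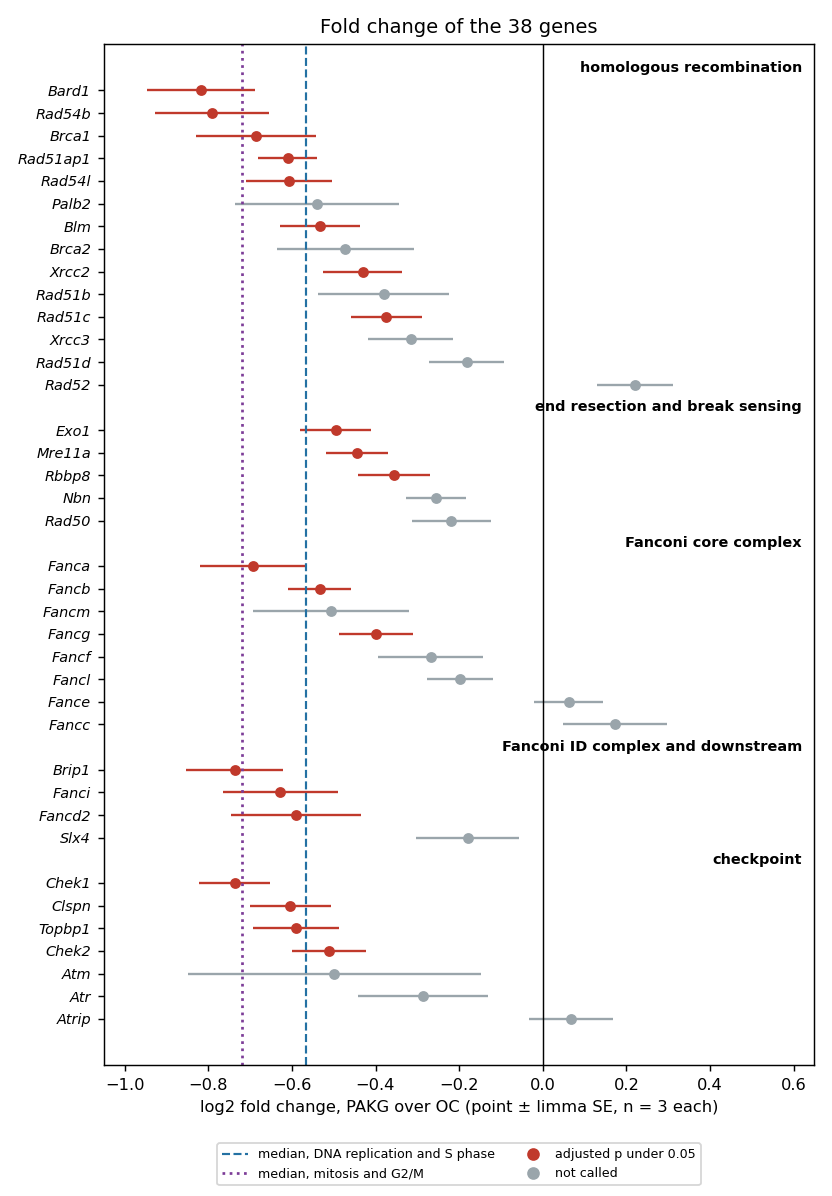
Log2 fold change, PAKG over OC, of the 38 genes by role, on the log2(FPKM + 0.1) scale. Points are fitted values, bars are limma standard errors (n = 3 each), red points are the 21 genes called lower, and the vertical lines are the medians of the DNA replication list (-0.57) and the mitosis list (-0.72). Bard1 lies farthest to the left at -0.82, and 4 genes lie to the right of 0.

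Of the 5 genes that sense breaks and cut back their ends, Exo1, Mre11a and Rbbp8 fell, and PAKG values lay below OC values for all 5. The nuclease gene Exo1 (ENSMUSG00000039748, chromosome 1, 175880581 to 175913489) had 2.57, 2.63 and 2.87 FPKM in PAKG, against 3.75, 3.89 and 3.85 FPKM in OC (log2 change -0.50, SE 0.09, limma adjusted p = 0.00881). Rbbp8, which encodes the resection factor CtIP, had 2.35, 2.42 and 2.27 FPKM in PAKG, against 2.94, 3.12 and 3.03 FPKM in OC (-0.36, adjusted p = 0.0324). Mre11a, Rad50 and Nbn encode the MRN complex that binds broken ends. Mre11a, its nuclease, had 6.17, 6.37 and 5.97 FPKM in PAKG, against 8.55, 8.83 and 7.93 FPKM in OC (-0.44, SE 0.07, adjusted p = 0.00811). Rad50 had 9.61, 10.05 and 9.29 FPKM in PAKG, against 11.11, 12.68 and 10.07 FPKM in OC, and the highest PAKG value all but met the lowest OC value. Its change of -0.22 was not called (adjusted p = 0.181, and 0.0432 with the block). Nbn, the most abundant of the 38 genes, had 22.44, 19.91 and 21.17 FPKM in PAKG, against 25.91, 24.41 and 25.49 FPKM in OC, a change of -0.26 (SE 0.07) that just missed the threshold (adjusted p = 0.0516, and 0.0114 with the block). Mre11a lost its call without PAKG replicate 3 (0.0515), and Rbbp8 without PAKG replicate 1 (0.0908) or 3 (0.144), without OC replicate 1 (0.0815), 2 (0.0851) or 3 (0.113), and with rescaling to a common total (0.121) or median-ratio scaling (0.0501).

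Of the 8 genes of the Fanconi core complex, Fanca, Fancb and Fancg fell, and Fancc and Fance had positive changes that were not called. The core complex is built from modules, and the called genes belong to the 2 modules that hold FANCA with FANCG and FANCB with FANCL. Fanca (ENSMUSG00000032815, chromosome 8, 123268300 to 123318576) had 2.27, 2.81 and 2.21 FPKM in PAKG, against 4.10, 4.31 and 3.54 FPKM in OC (log2 change -0.69, SE 0.13, limma adjusted p = 0.0106). Fancb, on the X chromosome (ENSMUSG00000047757, 164980592 to 164997272), had 3.79, 3.85 and 3.67 FPKM in PAKG, against 5.76, 5.38 and 5.37 FPKM in OC (-0.53, SE 0.08, adjusted p = 0.00381). Fancg had 3.61, 3.55 and 3.63 FPKM in PAKG, against 5.11, 4.92 and 4.33 FPKM in OC (-0.40, adjusted p = 0.0238). In these 3 genes no PAKG value reached an OC value. Fancl, the ubiquitin ligase of the complex, had a change of -0.20 (adjusted p = 0.143, and 0.0391 with the block), and Fancm, the DNA translocase that anchors it, one of -0.51 (0.12, and 0.0231 with the block). The third module holds FANCC, FANCE and FANCF, and none of its genes was called. Fance had 7.51, 6.77 and 7.85 FPKM in PAKG, against 7.36, 6.79 and 7.01 FPKM in OC (0.06, adjusted p = 0.677). Fancc had 2.11, 1.63 and 1.83 FPKM in PAKG, against 1.64, 1.63 and 1.61 FPKM in OC (0.17, adjusted p = 0.412), and Fancf had a change of -0.27 (adjusted p = 0.208). Of the module partners outside the 38 genes, Faap100 changed by 0.01 on the log2 scale (not called, adjusted p = 0.976) and Faap20 by 0.28 (not called, 0.114, but called higher with the block, 0.0239), so not every partner of a called gene was lower. Fanca lost its call without PAKG replicate 3 (0.05 after rounding), and Fancg without PAKG replicate 1 (0.0693) or 3 (0.0926), without OC replicate 1 (0.0879) or 2 (0.0653), and with rescaling to a common total (0.0789). Fanca shares 920 of 8761 exonic bases with Zfp276 on the opposite strand.

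Both genes of the ID complex, the target of the core complex, fell. Fancd2 (ENSMUSG00000034023, chromosome 6, 113531682 to 113597017) had 1.72, 2.57 and 1.91 FPKM in PAKG, against 2.94, 3.45 and 2.99 FPKM in OC (log2 change -0.59, SE 0.16, limma adjusted p = 0.0435). Fanci (ENSMUSG00000039187, chromosome 7, 79391929 to 79450264) had 2.17, 2.89 and 2.12 FPKM in PAKG, against 3.76, 4.0 and 3.41 FPKM in OC (-0.63, SE 0.14, adjusted p = 0.0222). In both genes replicate 2 was the highest library of its group. Brip1, a helicase that binds BRCA1 (ENSMUSG00000034329, chromosome 11, 86058138 to 86201193), had 2.21, 2.79 and 2.31 FPKM in PAKG, against 3.91, 4.52 and 3.92 FPKM in OC (-0.74, SE 0.12, adjusted p = 0.0064). Slx4, the scaffold of crosslink-cutting nucleases, had a change of -0.18 with overlapping groups (adjusted p = 0.389). The enzymes that add and remove the ubiquitin of the ID complex, from the list of other recombination and crosslink genes, were also lower. Usp1, which removes it, averaged 24.8 FPKM in PAKG and 39.9 FPKM in OC (-0.69, adjusted p = 0.000677), and Ube2t, which adds it with FANCL, 1.07 FPKM in PAKG and 1.76 FPKM in OC (-0.69, adjusted p = 0.0342). Fancd2 lost its call without PAKG replicate 1 (0.12) or 3 (0.144), without OC replicate 1 (0.0951), 2 (0.114) or 3 (0.114), and with rescaling to a common total (0.0986), median-ratio scaling (0.06) or no mean-variance trend (0.0544). Fanci lost it without PAKG replicate 1 (0.0735) or 3 (0.089), without OC replicate 1 (0.0748), 2 (0.0639) or 3 (0.0555), and with rescaling to a common total (0.0586). With the block both were called (0.00787 and 0.00535). Fanci shares 921 of 5774 exonic bases with Polg on the opposite strand.

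Of 7 checkpoint genes, 4 fell: the kinase genes Chek1 and Chek2, and Topbp1 and Clspn, whose products activate ATR and pass its signal to CHEK1. Chek1 (ENSMUSG00000032113, chromosome 9, 36708482 to 36727065) had 3.34, 3.23 and 2.93 FPKM in PAKG, against 5.42, 5.13 and 5.47 FPKM in OC. Its log2 fold change of -0.74 (SE 0.08) had the smallest adjusted p of the 38 genes (limma, 0.00164). Chek2 (ENSMUSG00000029521, chromosome 5, 110839979 to 110874145) had 3.61, 3.69 and 3.65 FPKM in PAKG, against 4.79, 5.71 and 5.27 FPKM in OC (-0.51, adjusted p = 0.00895). Topbp1 (ENSMUSG00000032555, chromosome 9, 103305215 to 103350428) had 6.60, 7.91 and 6.83 FPKM in PAKG, against 10.21, 11.98 and 10.10 FPKM in OC (-0.59, adjusted p = 0.00921). Clspn (ENSMUSG00000042489, chromosome 4, 126556935 to 126593903) had 4.58, 5.34 and 4.56 FPKM in PAKG, against 7.12, 8.03 and 6.99 FPKM in OC (-0.60, adjusted p = 0.00655). The promoter windows of Chek2, Topbp1 and Clspn are among the 4 printed above, and no octamer was found in that of Chek1. The kinases at the head of both branches were not called. Atr had 1.00, 1.29 and 1.01 FPKM in PAKG, against 1.26, 1.54 and 1.28 FPKM in OC (-0.29, SE 0.16, adjusted p = 0.277). Its partner Atrip had 3.99, 3.37 and 3.74 FPKM in PAKG, against 3.82, 3.30 and 3.45 FPKM in OC (0.07, adjusted p = 0.713), and shares 1147 of 7152 exonic bases with Trex1 on the same strand. Among the other ATR activators, Etaa1 was lower (-0.48, adjusted p = 0.00499), as was the replication fork protein gene Timeless (-0.48, adjusted p = 0.0115). The clamp genes Hus1, Rad1 and Rad9a and their loader Rad17 had changes of -0.00, -0.11, -0.15 and -0.02 and were not called (adjusted p = 0.988, 0.633, 0.289 and 0.913).

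Atm had 0.96, 2.44 and 1.22 FPKM in PAKG, against 1.62, 3.00 and 1.78 FPKM in OC, so replicate 2 was far above the other libraries in both groups, and the groups overlapped. Its log2 fold change of -0.50 was not called (SE 0.35, adjusted p = 0.406). Within each replicate number the PAKG value was below the OC value, and Atm was called with the block (adjusted p = 0.0255) and without replicate 2 of both groups (-0.60, adjusted p = 0.0482), an alternative chosen after the data were seen. The longest coding transcript of Atm, at 9819 bases, is among the longest of the 38, of which the longest is that of Brca2 (10724 bases). Over the 38 genes, the log2 ratio of replicate 2 to the mean of replicates 1 and 3 correlated with the log2 of that length at r = 0.59 in PAKG and r = 0.67 in OC (Spearman's rho 0.59 and 0.66). This is a description over genes, which share their libraries, and neither the labels nor the methods say what sets replicate 2 apart. Without replicate 2 of both groups, 23 of the 38 were lower and none was higher, the 21 of the full comparison with Atm and Nbn. In that fit 12.3% of all genes tested were lower and 9.53% were higher, more than with all libraries. Samples with the same number deviated together over all genes, and with the number as a block 28 of the 38 were lower and none was higher, whereas 17.1% of all genes tested were lower and 12.3% were higher in that fit. The 7 added genes were Brca2, Xrcc3, Rad50, Nbn, Fancl, Fancm and Atm. For 33 of the 38 genes the PAKG library was below the OC library in all 3 replicate numbers, as for 34.7% of all genes tested.

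**Figure D3:**
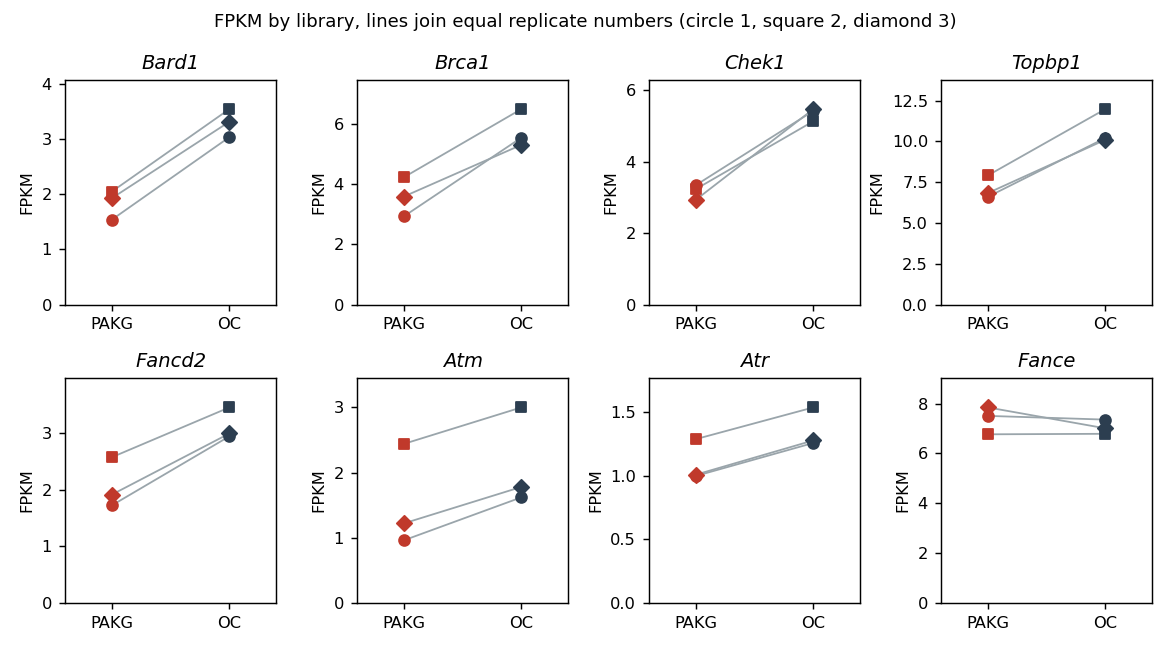
FPKM of Bard1, Brca1, Chek1, Topbp1, Fancd2, Atm, Atr and Fance in the 3 PAKG (red, left) and 3 OC (dark, right) libraries, on linear axes from 0. Circles, squares and diamonds are replicates 1, 2 and 3, and lines join libraries of the same number. For Atm the squares (2.44 FPKM in PAKG and 3.00 in OC) lie above all other points, and each line rises to the right.

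The genes known to be transcribed with DNA replication made up most of the calls. By a list drawn from general knowledge, 13 of the 38 were taken as replication-linked: Brca1, Brca2, Bard1, Rad51ap1, Rad54l, Blm, Exo1, Fanca, Fancd2, Fanci, Brip1, Chek1 and Clspn. Of these 12 fell, all but Brca2, with a median log2 fold change of -0.61 and a range of -0.82 to -0.47. Of the other 25 genes 9 fell, with a median of -0.36 and a range of -0.79 to 0.22. Without PAKG replicate 2 the median of the 13 was -0.75. As the list was drawn with earlier results of these data known, the difference between the 13 and the 25 is a description.

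Genes of the cell cycle were lower over nearly the whole of both lists examined. Of 50 DNA replication and S phase genes, 45 fell and none rose, with a median log2 fold change of -0.57 and an interquartile range of -0.65 to -0.46. Mcm5, a subunit of the replicative helicase, averaged 32.4 ± 1.29 FPKM in PAKG and 54.0 ± 2.83 FPKM in OC (SD, n = 3 each; -0.73, limma adjusted p = 0.000849). Rrm1 and Rrm2, the ribonucleotide reductase subunits, had changes of -0.70 and -0.69 (adjusted p = 0.000657 and 0.000579), and Hells, a chromatin remodeller, one of -0.80 (0.000852). Of 60 mitosis and G2/M genes, 59 fell, with a median of -0.72, and Pttg1, the securin gene, was the exception (0.05, adjusted p = 0.813). Ccnb1, the mitotic cyclin B1, had the largest fall of these 60 (-0.98, adjusted p = 0.00037), followed in adjusted p by Melk (-0.79, 0.000373), Ccna2 (-0.85, 0.000387) and Prc1 (-0.82, 0.000515). None of the genes of these lists fell by as much as 2-fold.

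The changes of the 13 replication-linked genes lay within the range of those of the DNA replication list (-0.89 to -0.25). The median of the other 25 genes (-0.36) lay within it too, so the range of that list does not set the 13 apart. Of the 13, 8 lay within the interquartile range of that list and 10 were more negative than its median, and of all 38 these numbers were 14 and 12. Only 4 of the 38, Bard1, Rad54b, Chek1 and Brip1, were more negative than the median of the mitosis list. In each library, the mean log2 level of the 13 genes was -0.73, -0.50 and -0.66 in PAKG replicates 1, 2 and 3, against -0.06, 0.10 and -0.04 in OC replicates 1, 2 and 3, relative to the OC mean. The DNA replication list was at -0.52, -0.61 and -0.53 in PAKG, against 0.04, -0.03 and -0.01 in OC, and the mitosis list at -0.71, -0.72 and -0.72 in PAKG, against -0.01, 0.03 and -0.02 in OC. All 3 lists were lower in every PAKG library than in any OC library. This order is not particular to them, as the other 25 genes and all genes tested had it too. The other 25 were at -0.33, -0.25 and -0.35 in PAKG, against -0.02, 0.05 and -0.03 in OC. The mean of all genes tested was at -0.015, -0.040 and -0.021 in PAKG, against 0.010, -0.004 and -0.006 in OC, a far smaller shift. In replicate 2 the 13 repair genes were highest and the DNA replication genes lowest within each group, so these lists did not move together within groups. The level in replicate 2 also went with transcript length across the 38 genes (r = 0.59 in PAKG and 0.67 in OC). What set replicate 2 apart was not tested. With 3 libraries a group, no correlation across samples is given.

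**Figure D4:**
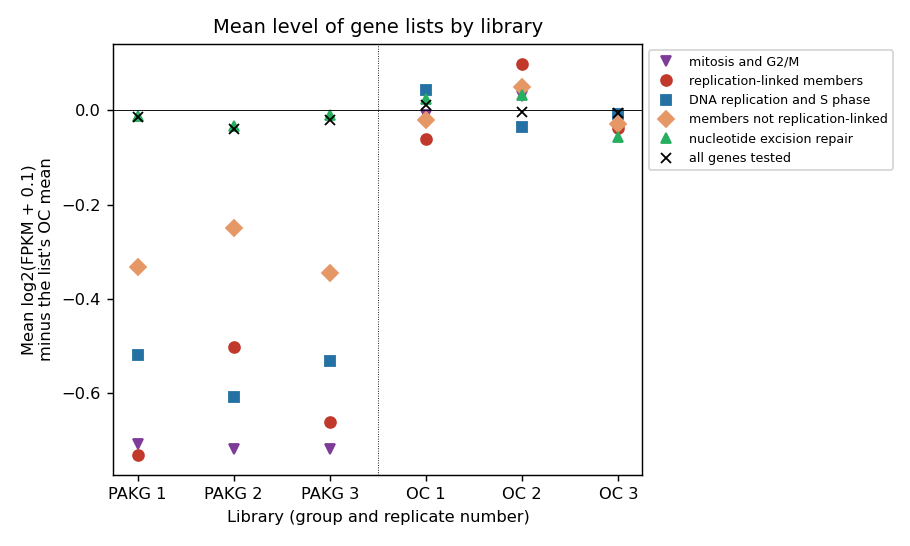
Mean log2(FPKM + 0.1) of 6 gene lists in each library, minus the list's mean over the OC libraries, with the 3 PAKG libraries on the left and the 3 OC libraries on the right. The mitosis list lies at -0.71 to -0.72 in PAKG, the 13 replication-linked genes at -0.73 to -0.50, the other 25 genes at -0.35 to -0.25, and the nucleotide excision repair list and all tested genes near 0.

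Other DNA repair genes were lower in part. Of 54 further recombination, crosslink repair and checkpoint genes, 14 fell and none rose, with a median log2 fold change of -0.17. With Usp1, those with the smallest adjusted p were Parpbp, which restrains recombination (-0.80, limma adjusted p = 0.00154), Fignl1, which removes the recombinase from DNA (-0.64, 0.0016), and Eme1, a subunit of a joint-cutting nuclease (-0.70, 0.00303). Among the mismatch repair genes, which correct replication errors, Msh6 (-0.49, 0.00736) and Pms1 (-0.47, 0.0295) fell. Of 16 base excision repair genes 2 fell, the glycosylase gene Neil3 (-0.56, 0.0133) and Parp1 (-0.33, 0.0249), and of 15 nucleotide excision repair genes 2 fell, Ercc5 (-0.32, 0.0298) and Rad23b (-0.35, 0.0354). The medians of these lists were -0.12 and -0.02. End joining, which repairs breaks without a sister chromatid, had 1 gene of 11 that fell, Aplf (-0.44, 0.0392), and a median of -0.01. Xrcc5 and Xrcc6, the Ku subunits, had changes of -0.08 and -0.18 (adjusted p = 0.593 and 0.15), Lig4, the end joining ligase, one of 0.01 (0.977), and Prkdc, the end joining kinase, one of 0.17 (0.475). Nhej1, a partner of the ligase, had the most positive change of these 11 genes (0.48, adjusted p = 0.124). Without the block, 13.3% of nucleotide excision repair, 12.5% of base excision repair and 9.09% of end joining genes were lower, against 8.73% of all genes tested. With the replicate number as a block, 6 of the 16 base excision repair genes were lower (37.5%, against 17.1% of all genes tested), with Ogg1 (adjusted p = 0.00965), Ung (0.0411), Lig3 (0.0371) and Tdg (0.0427) added. Of the end joining genes, the block added Xrcc6 as lower (0.0396) and Nhej1 as higher (0.011). Of the nucleotide excision repair genes it added Xpc as higher (0.0385). In that fit 18.2% of end joining and 13.3% of nucleotide excision repair genes were lower, against 17.1% of all genes tested. Of the 54 further recombination, crosslink repair and checkpoint genes the block called 21 lower and 2 higher, Faap20 and Mus81 (0.0389). Whether lists differed was not tested.

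**Figure D5:**
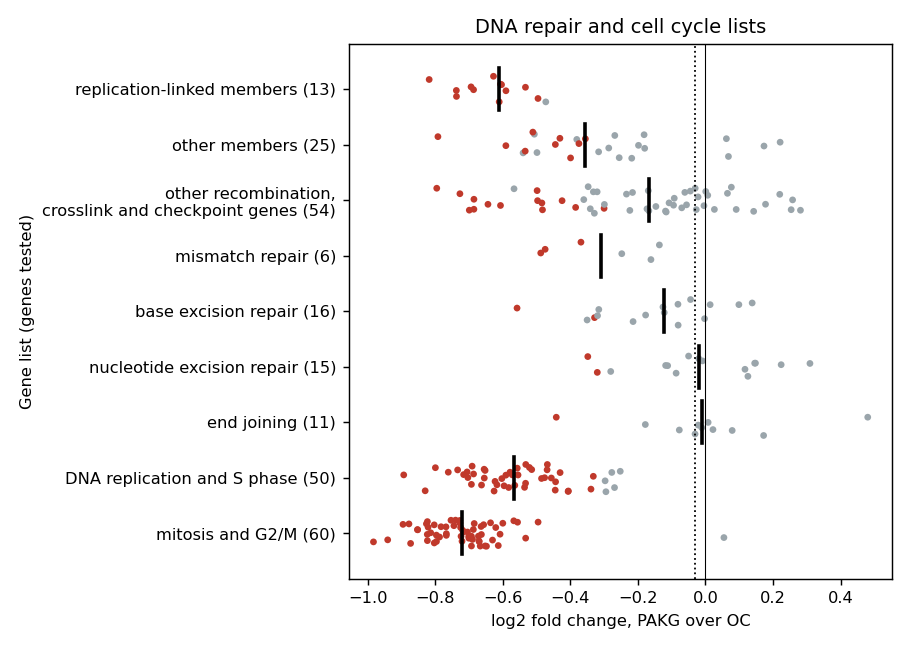
Log2 fold change, PAKG over OC, of each tested gene of 9 lists, on the log2(FPKM + 0.1) scale, with the number of genes tested in brackets. Red points have an adjusted p under 0.05, black bars are medians, and the dotted line is the median of all genes tested (-0.03). The replication-linked genes (median -0.61) overlap the DNA replication list (-0.57), whereas end joining (-0.01) and nucleotide excision repair (-0.02) centre near 0.

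The FPKM sums were 289675.9 to 310581.7 in PAKG and 295863.6 to 325818.2 in OC, but FPKM are already scaled to library size. By the low values, an estimated 32600000 to 42500000 fragments stood behind the PAKG libraries and 32000000 to 37900000 behind the OC libraries. The labelled cell type was checked against 7 osteoblast lineage markers, all detected in every library. Their summed level was 6829 to 7579 FPKM in PAKG and 4659 to 5714 FPKM in OC, and 6 of the 7 were higher in PAKG, among them Sp7, an osteoblast transcription factor (1.35, limma adjusted p = 7.83e-05). Of other cell types, 5 adipocyte markers summed to at most 0.04 FPKM in PAKG and 1.45 FPKM in OC, reached in OC replicate 3, and 2 endothelial markers to at most 0.03 FPKM in PAKG and 0.02 FPKM in OC. The 5 macrophage markers summed to 19.9 to 22.1 FPKM in PAKG and 13.1 to 17.4 FPKM in OC, nearly all from Lyz2 and Cd14. Lyz2 was higher in PAKG (0.64, limma adjusted p = 0.012). Csf1r, too low to be tested, had 0.22 to 0.29 FPKM in PAKG and 0.06 to 0.12 FPKM in OC. The groups overlapped for Cd14 and Cd68. The defining leukocyte gene Ptprc was at most 0.01 FPKM in any library. The part of these levels in the results on repair genes was not tested.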

How the data were processed

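RNA-Seq values of 3 PAKG and 3 OC libraries were analysed, with groups and replicate numbers from the sample titles. The authors deposited FPKM per gene, rounded to 2 decimals. HISAT2, StringTie, cutadapt, FastQC, DESeq2 and the GRCm38 build are named in the submitters' processing notes, and their versions were not given in the sources used here. A count model was not applied, as FPKM are normalised values. Values were transformed to log2(FPKM + 0.1), which understates the change of low genes, and genes averaging 0.5 FPKM or more were tested with limma 3.58.1 under R 4.3.3 (eBayes, mean-variance trend). Tests were 2-sided, with p-values adjusted by Benjamini-Hochberg. The calling step was tried on simulated data whose errors were independent between libraries. Deviations shared by same-numbered samples were not simulated, so the trial does not bear on them. The 38 genes, the lists, the motifs and the rule for named genes were chosen with earlier results of these data known. By that rule all 38 are named, with the value in each library for those called, the 5 of largest change and the heads of each role, and up to 4 genes of each other list by adjusted p. Outside it, the libraries of Palb2, Nbn, Rad52, Fance, Fancc and Atrip, and Ube2t, Etaa1, Timeless, Hus1, Rad1, Rad9a, Rad17, Faap20, Faap100, Mus81, Lig3, Tdg, Xrcc5, Lig4, Pttg1, Sp7, Lyz2, Csf1r and Cd68, were chosen after their values were seen. Genes are placed on GENCODE M21, and promoters are from RefSeq. Depth was estimated from the FPKM that 1 fragment is worth on short genes of 1 transcript, and whole reads were not recovered, so no count test was run. Same-numbered samples deviated together (r of 0.19 to 0.43 in all 3 pairs, against -0.31 to 0.14 for other pairs), so the number was also fitted as a block. Deviations were taken from each group's mean, so a positive r in some pairs lowers that of others by arithmetic. The strongest pair was that of replicate 2 (0.43). Alternatives were pseudocounts of 1 and 0.01, no filter or one at 1 FPKM, rescaling to a common total, median-ratio scaling, no trend, the block and each replicate left out, and, after the data were seen, replicate 2 of both groups left out. The markers Adgre1, Kdr, Tek and Emcn and the repair gene Neil2 were not analysed here, and part of the mismatch repair list is not reported here. Summaries and plots used pandas 2.3.3, numpy 2.4.6, scipy 1.17.1 and matplotlib 3.10.9 under Python 3.11.15.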

Additional observations from a re-analysis of the deposited data

How the results depend on the processing

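All 38 genes kept the direction of their change in each of the 15 alternatives in which they were tested, and no alternative called any of them higher. Of the 21 genes called lower, 11 were called in all 15: Bard1, Rad51ap1, Rad54l, Rad54b, Exo1, Fancb, Brip1, Chek1, Chek2, Topbp1 and Clspn. The count of 21 ranged from 11 to 22 with single replicates left out. It was 14 with no filter, where 25742 genes were tested and Brca1, Rad51c, Xrcc2, Rbbp8, Fancg, Fancd2 and Fanci lost their call (limma adjusted p of 0.0508 to 0.106). It was 15 with rescaling to a common total, 19 with median-ratio scaling and 28 with the replicate block, under which calls in the other repair lists changed too. The calls over all genes, 1850 in all, were 3711 with the replicate block and 827 to 2227 with single replicates left out. Calls were split into 751 higher and 1099 lower, against 871 and 764 with rescaling to a common total. The median over the 38 genes was -0.33 with a pseudocount of 1 and -0.50 to -0.43 with single replicates left out, and that of the 13 replication-linked genes was -0.75 to -0.57. The median of the DNA replication list was -0.52 with a pseudocount of 1 and -0.52 with rescaling to a common total, and that of the mitosis list -0.67 with either and -0.69 with median-ratio scaling. The cause was not tested. The depth estimate is coarse, and the values of the lowest genes, such as Palb2, rest on few fragments.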
